A study of Mustela putorius furo and Mus musculus with 4 samples.

Results

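*Cxcl12*, *Cxcr4* and *Ackr3* encode a chemokine ligand and the pair of receptors that bind it. They were chosen by name, as 3 of the 17170 genes in a mouse table of UMI counts (unique molecular identifiers, each of which marks 1 captured transcript) and, under upper case names, as 3 of the 22008 genes in a ferret table. All 3 genes were detected in both species. The mouse cells came from the cortex at E18, a day after CellTrace Yellow, a dye that labels cells lining the ventricle, was injected into the lateral ventricle, and labelled cells were sorted and sequenced on the 10x Genomics droplet platform. One library is Smo-cKO, of genotype *hGFAP-Cre*;*Smo* F/F: a Cre driven by the human *GFAP* promoter removes *Smo*, the transducer of Sonic Hedgehog (SHH) signals, from radial glia (RG). How many embryos entered each mouse library is not given in the sources used here. The other library is a littermate control, *Smo* F/F in the study's methods but wild type in the sample labels, which give strain CD1 for both. The ferret cells came from the cortex of 1 wild type embryo at E39. They carry 2 barcode sets that could not be tied to the labelled samples, so the sets are not separate animals.

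CXCL12 is a secreted chemokine that attracts migrating cells. CXCR4 is its signalling receptor, coupled to inhibitory G proteins that lower cAMP, and ACKR3 is an atypical receptor that takes up and removes CXCL12. In the developing cortex the system is known for guiding Cajal-Retzius cells under the meninges and for keeping tangentially migrating interneurons in their streams, and in blood vessels CXCL12 is a product of endothelial cells. The system bears on the study's subject, SHH signalling in RG cells, because lower cAMP and protein kinase A activity leaves less of the GLI3 repressor of that pathway. In the GRCm38 assembly of the mouse genome, annotated by GENCODE, *Cxcl12* lies on chromosome 6 at 117168535 to 117181367 on the forward strand. *Cxcr4* lies on chromosome 1 at 128588199 to 128592293 on the reverse strand, and *Ackr3* on the same chromosome at 90203980 to 90216751 on the forward strand. Since the tables hold counts per gene, no exon, intron or UTR can be given for a count.

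After cells outside the study's own limits were left out, 10498 control and 7209 Smo-cKO cells remained, with a median of 4033.5 and 4836 UMIs per cell. The ferret sets held 10185 and 13052 cells, with medians of 2556 and 3563. The libraries of mouse shared 28 cell barcodes and the ferret sets 38. A cell was given the class for which it held the largest share of marker genes, with at least 3 markers needed, and between 6.81% and 8.49% of the cells of a library or set took no class. Classes are named for those markers and each is to be read as RG-like, IPC-like (intermediate progenitor), newborn PyN-like (pyramidal neuron) and so on. Of genes held out of the lists, *Clu* had a UMI in 64.4% and 82.4% of mouse RG cells of control and Smo-cKO against 4.22% and 7.06% of the other cells. *Clu* was also among the genes that most set the RG class apart in these same cells, so its shares describe the class and are no independent check. *Gli3*, which was not among those genes in mouse, had a UMI in 36.7% and 47.5% of RG cells against 8.93% and 10.3% of the others. Ferret names were weaker. *NEUROD2* was as frequent outside the newborn PyN class (55.4% and 59.8%) as inside it (50.6% and 62.6%). *BTBD17* was rare inside the IPC class (1.32% and 0.197%) and outside it (0.476% and 0.797%), so it gave no backing to that name in ferret. In Cajal-Retzius cells *RAMP1* was at 0% and 17.6% against 2.68% and 3.34% outside, while *NHLH2* was at 72.7% and 88.2% against 0.629% and 0.767%. *Smo* itself had a UMI in 248 of 3088 control RG cells (8.03%) and in 5 of 1981 Smo-cKO RG cells (0.252%). The genotype of a barcode suffix was taken from its cell number alone, so if that were wrong every direction given between the mouse libraries would be reversed. With 1 library per genotype there was no test, and genotype, embryo and preparation cannot be told apart.

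Levels below are CPM, the UMIs of a gene per 1000000 UMIs of all cells in a class. They carry exact Poisson 95% intervals, shares of cells carry Clopper-Pearson intervals, and ratios carry exact conditional binomial intervals. A count of 0 is given instead with the limit of 3 counts, which bounds the share of cells with a UMI and not of cells that express the gene. All of these cover counting error only.

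**Figure D1:**
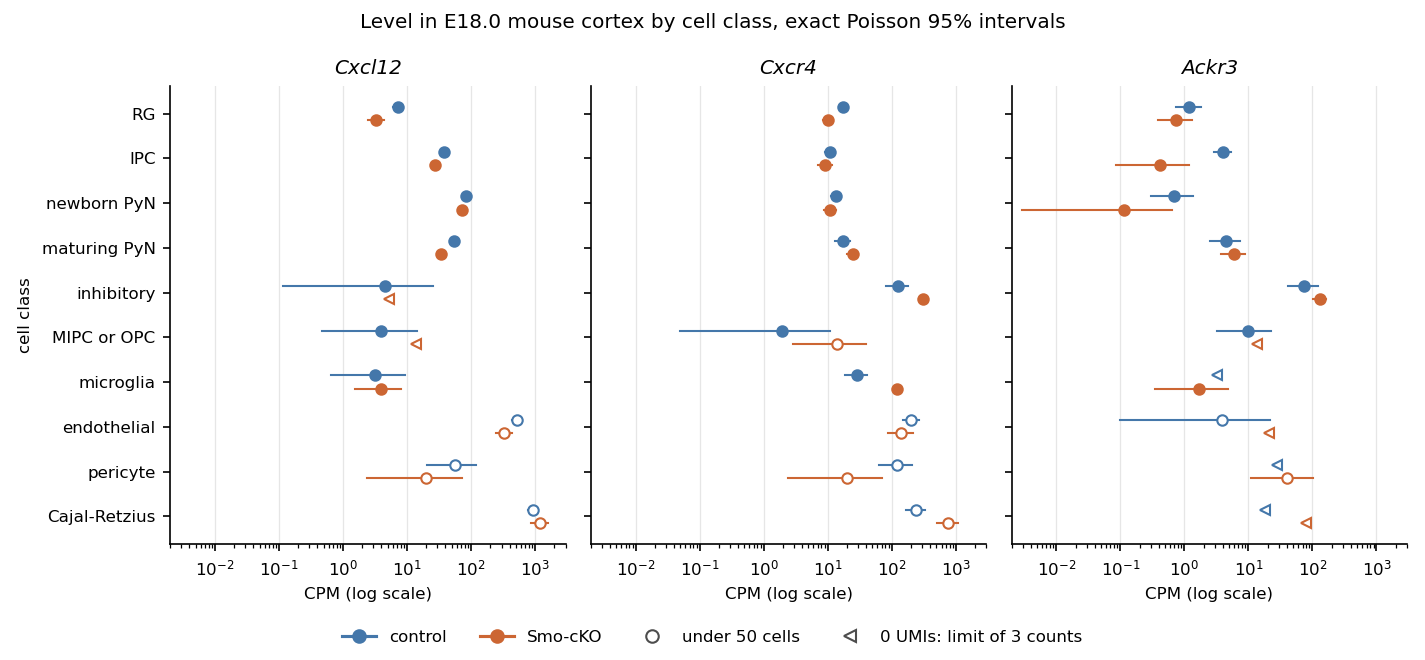
Level of each gene in CPM (log axis) by cell class in E18 mouse cortex, with control in blue and Smo-cKO in orange. Points are the pooled level of a class, bars are exact Poisson 95% intervals, open points stand for classes of under 50 cells, and open triangles mark the limit of 3 counts where a class had 0 UMIs. *Cxcl12* stands highest in the Cajal-Retzius class (919 and 1178 CPM), *Cxcr4* is above 100 CPM in the inhibitory class (125 and 310 CPM), and *Ackr3* is highest there (73.9 and 129 CPM).

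The ligand was carried by neurons of the excitatory lineage, by Cajal-Retzius cells and by vessels. Among classes of at least 50 cells, *Cxcl12* was highest in the newborn PyN class of both mouse libraries. There it reached 83.2 CPM (78.0 to 88.6) in control, from 965 UMIs, with a UMI in 701 of 2968 cells (23.6%, 22.1 to 25.2). In Smo-cKO it reached 71.8 CPM (66.4 to 77.6), from 635 UMIs in 454 of 2060 cells (22.0%, 20.3 to 23.9). The maturing PyN class followed with 54.8 CPM (47.2 to 63.2) and 34.6 CPM (29.1 to 40.8), and the IPC class with 38.0 CPM (34.6 to 41.6) and 27.2 CPM (23.5 to 31.2). In control the intervals of newborn PyN, maturing PyN, IPC and RG did not overlap, whereas in Smo-cKO those of maturing PyN and IPC did.

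*Cxcl12* was low in the RG class, at 7.35 CPM (6.16 to 8.69) in control and 3.29 CPM (2.47 to 4.31) in Smo-cKO. UMIs of the ligand were found in 106 control RG cells (3.43%, 2.82 to 4.14) and in 45 Smo-cKO RG cells (2.27%, 1.66 to 3.03). These shares were close to those of classes in which the ligand is not known. For the microglia class the share was 3.33% in control (3 of 90 cells, 0.693 to 9.43) and 1.17% in Smo-cKO (2 of 171 cells, 0.142 to 4.16), at 3.19 and 3.89 CPM. In the inhibitory class it had 1 UMI in 57 control cells (1.75%, 0.0444 to 9.39). None was seen among 178 cells of the other library, where the limit of 3 counts is 1.69%. Median depth was 5164.5 and 7478 UMIs in RG, 8461 and 7568 in microglia, and 2910 and 3054.5 in inhibitory cells. In control 23 RG cells held at least 2 UMIs and the highest held 5, while no microglia cell held more than 1. In Smo-cKO 8 RG cells held 2 UMIs, and 1 microglia cell held 6. Whether the RG cells with more than 1 UMI express the ligand was not tested. The RG share overlapped that of both other classes in both libraries. By share, the RG class was therefore not separated from these classes, in which few cells held a UMI. Whether its UMIs come from expression or from free RNA was not tested, so the RG level is not taken to measure expression. The measured newborn PyN level was 11.3 times the measured RG level in control (9.45 to 13.6) and 21.8 times in Smo-cKO (16.5 to 29.4). For the same reason these are not taken as folds of expression.

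Per cell the ligand was most abundant in the Cajal-Retzius class, the pioneer neurons of the cortical surface. Every cell of this class also held a UMI of *Nhlh2*, a gene left out of the marker list but among those that most set the class apart. The ligand had a UMI in 18 of 19 control cells and in 4 of 4 Smo-cKO cells. Medians were 6 and 12.5 UMIs, and the highest cells held 21 and 18 UMIs. The levels were 919 CPM (778 to 1079) and 1178 CPM (859 to 1576), a ratio of 1.28 (0.897 to 1.80). Endothelial cells came next, at 528 CPM (443 to 625) in 31 control cells and 332 CPM (244 to 442) in 12 Smo-cKO cells. That level rested on few cells, since *Cxcl12* had a UMI in 10 control endothelial cells and the 5 highest held 122 of the 136 UMIs (89.7%). The highest cells held 39 UMIs in control and 30 in Smo-cKO. Control endothelial cells with a UMI of *Cxcl12* had a summed level of 544 CPM over 6 arterial genes, against 187 CPM in those without, and in Smo-cKO these values were 355 and 260 CPM. Of the 6 genes, 2 were at 0 in each of these groups. The pericyte class had 55.8 CPM (20.5 to 121) in 21 control cells and 19.8 CPM (2.40 to 71.5) in 16 Smo-cKO cells, from 6 and 2 UMIs.

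**Figure D2:**
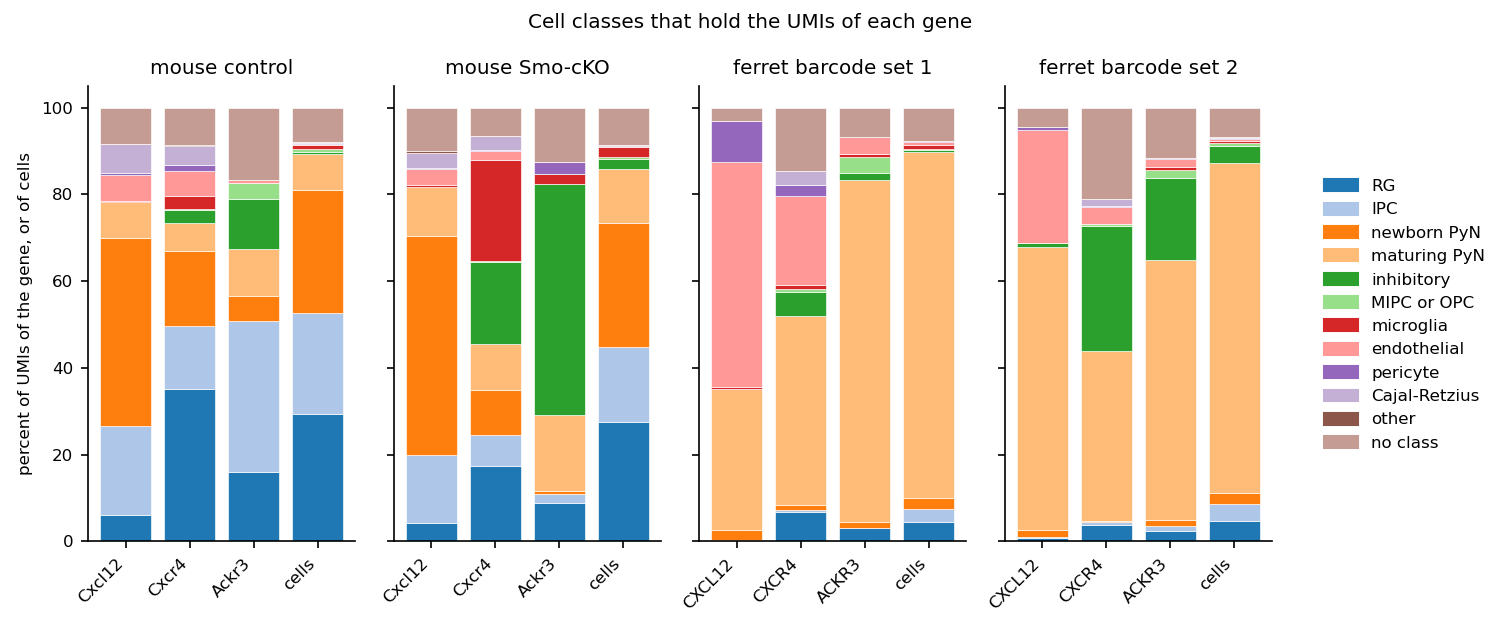
Percent of all UMIs of each gene, and of all cells, held by each cell class, with 1 panel per mouse library and ferret barcode set and bars that add to 100%. In control mouse cortex 43.3% of *Cxcl12* UMIs lie in the newborn PyN class, in Smo-cKO 53.3% of *Ackr3* UMIs lie in the inhibitory class, and in ferret set 1 the endothelial class holds 51.8% of *CXCL12* UMIs.

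Because the classes differ in size, the cells that held most of the ligand were not those with the highest level. The newborn PyN class held 43.3% of all *Cxcl12* UMIs in control and 50.5% in Smo-cKO, from 28.3% and 28.6% of the cells. The IPC class held 20.5% and 15.7%, and the maturing PyN class 8.34% and 11.2%. Cajal-Retzius cells, 0.181% of control cells, held 6.73% of the UMIs, more than the 6.10% held by the RG class with 29.4% of the cells. Sorting for a dye given into the ventricle sets how many cells of each class are present, so these shares describe the sorted cells and not the cortex.

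Within the IPC class the ligand followed the markers of newborn neurons. These markers also enter the choice of class, since a cell with a larger share of them is placed among newborn PyN cells, so the steps run toward that border. In control, *Cxcl12* was at 4.84 CPM (2.41 to 8.65) in IPC cells with none of the 8 newborn PyN markers, 23.1 CPM (17.6 to 29.7) in those with 1, 47.0 CPM (39.1 to 56.1) in those with 2 and 57.6 CPM (50.9 to 65.0) in those with 3 or more. In Smo-cKO the same steps were 2.67 CPM (0.551 to 7.80, from 3 UMIs), 8.53 (4.88 to 13.9), 28.2 (20.8 to 37.2) and 50.9 (42.5 to 60.5). Each step had a higher value than the one before, but the intervals of the last pair of steps in control and of the first pair in Smo-cKO overlapped. IPC cells without a UMI of *Neurog2*, a proneural factor and one of the IPC markers, had 57.8 CPM (48.7 to 68.0) and 66.3 CPM (50.5 to 85.6), against 32.8 CPM (29.3 to 36.7) and 21.7 CPM (18.3 to 25.6) in those with one. Cycling IPC cells, defined by at least 3 cell cycle markers, had 24.9 CPM in control and 6.90 CPM in Smo-cKO, from 73 and 5 UMIs, and the other IPC cells 42.2 and 29.4 CPM.

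Comparing the libraries asks how the system stood where RG cells lack *Smo*. *Cxcl12* was lower in Smo-cKO in the IPC, newborn PyN and maturing PyN classes. Its level in RG cells, where the source of the UMIs was not tested, was also lower. The CPM ratio of Smo-cKO over control was 0.864 in newborn PyN (0.780 to 0.956), 0.715 in IPC (0.602 to 0.847), 0.631 in maturing PyN (0.503 to 0.790) and 0.448 in RG (0.320 to 0.620), and all 4 intervals lay below 1. In endothelial cells, outside the excitatory lineage, the ratio was 0.629 (0.442 to 0.882), from 31 control and 12 Smo-cKO cells. There 5 control cells held 122 of the 136 UMIs, and 4 Smo-cKO cells held all 47. The interval does not cover that spread between cells, and the ratio of means over cells was 0.802, so no difference is read from it. The shares of cells differed less: by -1.58 percentage points in newborn PyN (-3.92 to 0.791), -1.62 in IPC (-3.82 to 0.702), -4.36 in maturing PyN (-7.57 to -1.17) and -1.16 in RG (-2.07 to -0.206). In endothelial cells they differed by 1.08 points (-25.2 to 31.9). After cells were thinned to 2000 UMIs each, the expected shares were 14.6% and 12.9% in newborn PyN, 7.47% and 5.78% in IPC, 10.0% and 6.30% in maturing PyN, and 1.2% and 0.593% in RG. Cells under 2000 UMIs were left out of this step, which removed none of the control cells of these classes, 25 Smo-cKO newborn PyN cells, 13 IPC cells, 39 maturing PyN cells and 113 RG cells.

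Along the IPC class the ratio of Smo-cKO over control was taken by step. Intervals of neighbouring steps overlapped, and differences between the steps were not tested. The ratio was 0.370 (0.199 to 0.651) in IPC cells with 1 newborn PyN marker, 0.599 (0.421 to 0.840) in those with 2 and 0.884 (0.711 to 1.09) in those with 3 or more. In cells with none it was 0.552 with a wide interval (0.0989 to 2.09). In RG cells the ratio was 0.268 (0.149 to 0.461) where the cell also had a UMI of an inhibitory neuron marker and 0.663 (0.431 to 1.00) where it had none. Such markers were found in 35.7% of control and 46.4% of Smo-cKO RG cells.

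**Figure D3:**
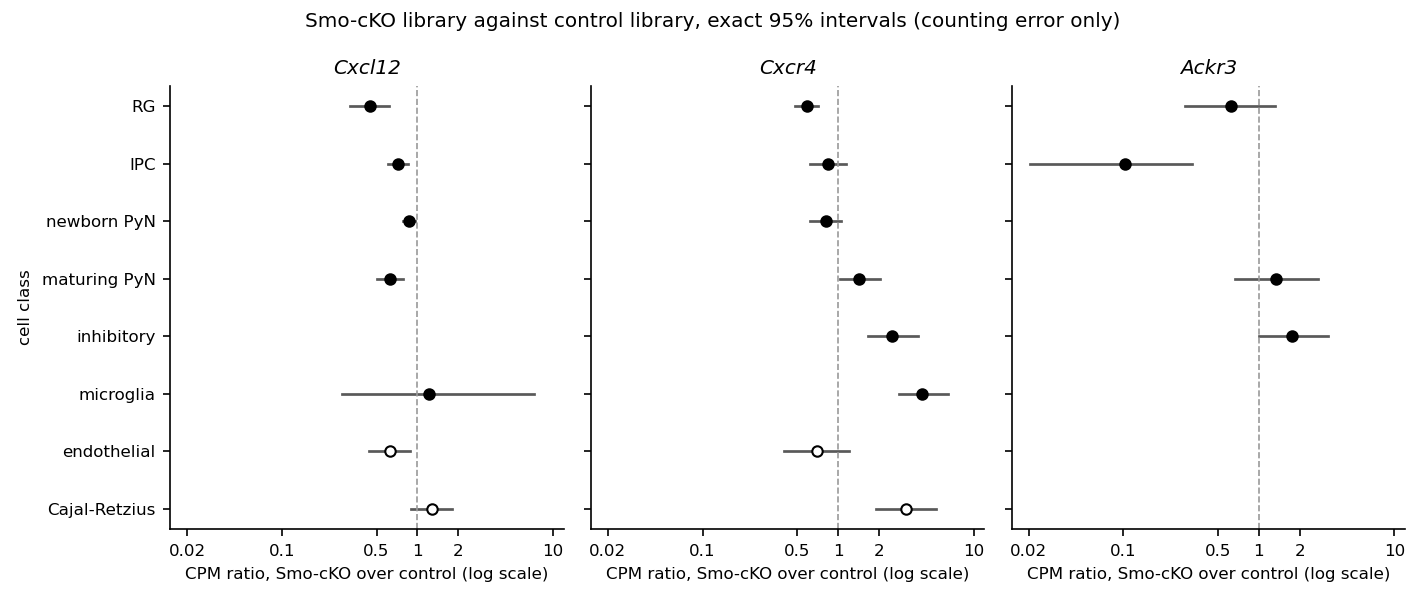
Ratio of CPM in Smo-cKO over control (log axis) for each gene and cell class, with exact conditional binomial 95% intervals. Open points stand for classes of under 50 cells, the dashed line marks a ratio of 1, and pericytes, MIPC or OPC cells and classes with under 10 UMIs over both libraries or 0 UMIs in 1 of them are not drawn. *Cxcl12* lies below 1 in the RG, IPC, newborn PyN, maturing PyN and endothelial classes, and its endothelial point rests on few cells with a UMI. *Cxcr4* is at 2.48 in the inhibitory and 4.18 in the microglia class, and *Ackr3* is at 0.103 in the IPC class.

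Read against all genes, these differences varied in rarity. Of all genes that reached 50 UMIs over the 2 libraries, a level lower by 1.5 fold or more in Smo-cKO was found for 5.73% of genes in RG, 5.61% in IPC, 3.52% in newborn PyN and 2.78% in maturing PyN. Of the 3 members, 2 had enough UMIs in RG, and both *Cxcr4* and the low *Cxcl12* signal were past that fold. In IPC all 3 had enough UMIs and *Ackr3* alone was past it, with 51 UMIs in all. In newborn PyN 2 had enough and none was past it, and in maturing PyN 2 had enough and *Cxcl12* was past it. That call was lost where cells needed a lead of 20 percentage points for their class, with a ratio of 0.870 (0.527 to 1.43). In the other direction the share of genes was 15.2% in inhibitory and 13.2% in microglia cells. *Cxcr4* and *Ackr3* were past it in inhibitory cells, where both had enough UMIs, and *Cxcr4* in microglia, where it alone had enough. With 3 members these counts are a description.

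The receptor *Cxcr4* had its highest levels outside the excitatory lineage. Among classes of at least 50 cells it was highest in the inhibitory class, which holds the interneurons that reach the cortex by tangential migration. The level was 125 CPM (82.2 to 182) in control, from 27 UMIs in 14 of 57 cells (24.6%, 14.1 to 37.8). In Smo-cKO it was 310 CPM (265 to 359), from 175 UMIs in 90 of 178 cells (50.6%, 43.0 to 58.1). These levels were 7.29 times the measured RG level in control (4.73 to 10.8) and 30.7 times in Smo-cKO (24.7 to 38.3). Whether RG cells express the receptor was not decided, so these are folds of measured levels only. Cajal-Retzius cells had *Cxcr4* UMIs in 12 of 19 control and 4 of 4 Smo-cKO cells, at 239 CPM (170 to 327) and 759 CPM (508 to 1090). Endothelial cells had 202 CPM (151 to 265) and 141 CPM (86.4 to 218), with UMIs in 12 of 31 and 5 of 12 cells.

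In the RG class *Cxcr4* was at 17.1 CPM (15.3 to 19.1) in control, from 317 UMIs in 268 cells (8.68%, 7.71 to 9.73). In Smo-cKO it was at 10.1 CPM (8.58 to 11.7), from 162 UMIs in 140 cells (7.07%, 5.98 to 8.29). As a class with a low share, MIPC or OPC cells (multipotent progenitors and oligodendrocyte precursors) had 1 UMI in 74 control cells, or 1.96 CPM (0.0495 to 10.9) at a median of 6283.5 UMIs, below the RG interval. That class had the lowest control level among classes of at least 50 cells. The comparison therefore cannot decide whether RG cells express *Cxcr4*. In Smo-cKO the same class had 3 UMIs in 2 of 21 cells, or 13.8 CPM (2.84 to 40.2), an interval that holds the RG level, so there the RG level was not separated from that class. The newborn PyN class stood at 13.4 CPM (11.4 to 15.7) and 10.9 CPM (8.80 to 13.3), and the IPC class at 10.7 CPM (8.95 to 12.7) and 9.05 CPM (7.00 to 11.5). In control the intervals of microglia, RG, maturing PyN, newborn PyN and IPC each overlapped with the next in order, so their ranking is not resolved. The RG class nevertheless held the largest part of *Cxcr4* UMIs in control, 35.3%, through its size. In Smo-cKO the parts were 23.2% in microglia (2.37% of cells), 18.8% in inhibitory cells (2.47% of cells) and 17.4% in RG.

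Maturing PyN cells had *Cxcr4* at 17.1 CPM (13 to 22.1) and 24.5 CPM (19.9 to 29.8), but most of those UMIs lay in cells that also held an inhibitory marker. In 79 control and 87 Smo-cKO maturing PyN cells with such a marker, *Cxcr4* was at 108 and 152 CPM. In the 796 and 807 cells without one it was at 5.32 and 8.29 CPM, from 16 and 30 UMIs. Whether these cells are interneurons that the marker lists placed among PyN cells or droplets that held more than 1 cell was not tested, since doublets were not removed.

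Between the libraries, *Cxcr4* was lower in RG and higher in inhibitory cells and microglia of Smo-cKO, with intervals that lay off 1. The interval also lay off 1 for maturing PyN cells, with a ratio of 1.44 (1.03 to 2.02) that became 1.56 (0.822 to 3.06) without cells that held an inhibitory marker, and for pericytes, with 0.164 (0.0180 to 0.724) from 13 and 2 UMIs. The ratio in RG was 0.588 (0.484 to 0.713). It was 0.663 (0.50 to 0.872) in cycling RG cells and 0.558 (0.421 to 0.735) in the others, and 43.2% of control against 30.8% of Smo-cKO RG cells were cycling. Thinned to 2000 UMIs, the expected shares of RG cells with *Cxcr4* were 3.35% and 1.95%. In IPC the ratio was 0.844 (0.618 to 1.14) and in newborn PyN 0.808 (0.620 to 1.05), intervals that include 1. In inhibitory cells it was 2.48 (1.65 to 3.87), with shares that differed by 26.0 percentage points (11.5 to 37.8) and thinned shares of 19.4% and 41.1%. Cells under 2000 UMIs were left out of those thinned shares, which kept all 57 control but 151 of 178 Smo-cKO cells. Cycling cells were 17.5% of control and 2.25% of Smo-cKO inhibitory cells, and without them the ratio was 1.81 (1.2 to 2.83). In Cajal-Retzius cells it was 3.18 (1.89 to 5.27), from only 4 Smo-cKO cells.

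The microglia class gave the largest ratio of *Cxcr4* among classes of at least 50 cells. It had 28.7 CPM (18.9 to 41.8) in control, from 27 UMIs in 13 of 90 cells (14.4%, 7.92 to 23.4). In Smo-cKO it had 120 CPM (105 to 137), from 216 UMIs in 80 of 171 cells (46.8%, 39.1 to 54.6). The ratio was 4.18 (2.79 to 6.49), and the thinned shares were 7.57% and 26.1%, from 90 control and 165 Smo-cKO cells. Other features of this class moved with it. Cycling cells made up 50% of control and 14.6% of Smo-cKO microglia, and without them the ratio was 2.03. Border macrophage genes (6 of 8 listed genes in the table, none at 0) summed to 520 CPM in control and 967 CPM in Smo-cKO, genes of homeostatic microglia to 2192 and 1680 CPM, and immediate early genes, which cell handling can induce, to 1964 and 2935 CPM.

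The same lists differed between microglia with and without a UMI of *Cxcr4*. Border macrophage genes summed to 844 CPM in control cells with the receptor and 484 CPM in those without, and to 1370 and 716 CPM in Smo-cKO. Homeostatic genes ran the other way, with 1276 against 2294 CPM in control and 980 against 2118 CPM in Smo-cKO. Immediate early genes stood at 2932 against 1855 CPM and at 4675 against 1848 CPM. Cycling cells were 7.69% and 57.1% of control cells with and without the receptor, and 3.75% and 24.2% in Smo-cKO. The part of any of these in the difference between the libraries was not tested.

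*Ackr3*, the scavenging receptor, had its highest level in inhibitory cells of both libraries, with an interval above that of each other class of at least 50 cells. It was at 73.9 CPM (42.3 to 120) in the control inhibitory class, from 16 UMIs in 9 of 57 cells (15.8%, 7.48 to 27.9). In Smo-cKO it was at 129 CPM (101 to 162), from 73 UMIs in 46 of 178 cells (25.8%, 19.6 to 32.9). The ratio was 1.75 (1.01 to 3.21) and the shares differed by 10.1 percentage points (-2.93 to 20.1), and the interval of the latter includes 0. These levels were 62.2 times the measured RG level in control (30.5 to 124) and 173 times in Smo-cKO (93.3 to 350). The RG levels rest on 22 and 12 UMIs, for which expression was not tested, so these are not taken as folds of expression. Inhibitory cells held 53.3% of all *Ackr3* UMIs in Smo-cKO and 11.6% in control, where the IPC class held 34.8%. No UMI was found in 19 control or 4 Smo-cKO Cajal-Retzius cells, and none in 90 control microglia (limit of 3 counts, 3.33% of cells).

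The receptors divided the inhibitory class differently. Cells were split by whether they held more markers of the medial ganglionic eminence (MGE) or of the caudal or lateral eminence (CGE or LGE), the ventral zones where interneurons are born. *Lhx6*, 1 of the MGE markers, is also in the inhibitory list. *Ackr3* was detected in 9 of 24 MGE cells of control (37.5%, 204 CPM, 117 to 332) and in 38 of 66 of Smo-cKO (57.6%, 289 CPM, 221 to 370). In CGE or LGE cells it had no UMI in 26 control cells and 4 UMIs in 92 Smo-cKO cells (13.8 CPM, 3.76 to 35.4). *Cxcr4* was present on both sides: 243 CPM (146 to 379) and 377 CPM (299 to 469) in MGE cells, and 71.1 CPM (28.6 to 147) and 276 CPM (219 to 344) in CGE or LGE cells. Its ratio between the libraries was 1.56 (0.935 to 2.71) in MGE cells and 3.88 (1.80 to 9.97) in CGE or LGE cells, and the difference between these ratios was not tested. Of the 178 Smo-cKO inhibitory cells, 30 held both receptors, against 23.3 from the product of the shares, and of the 57 control cells 3 did, against 2.21.

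**Figure D4:**
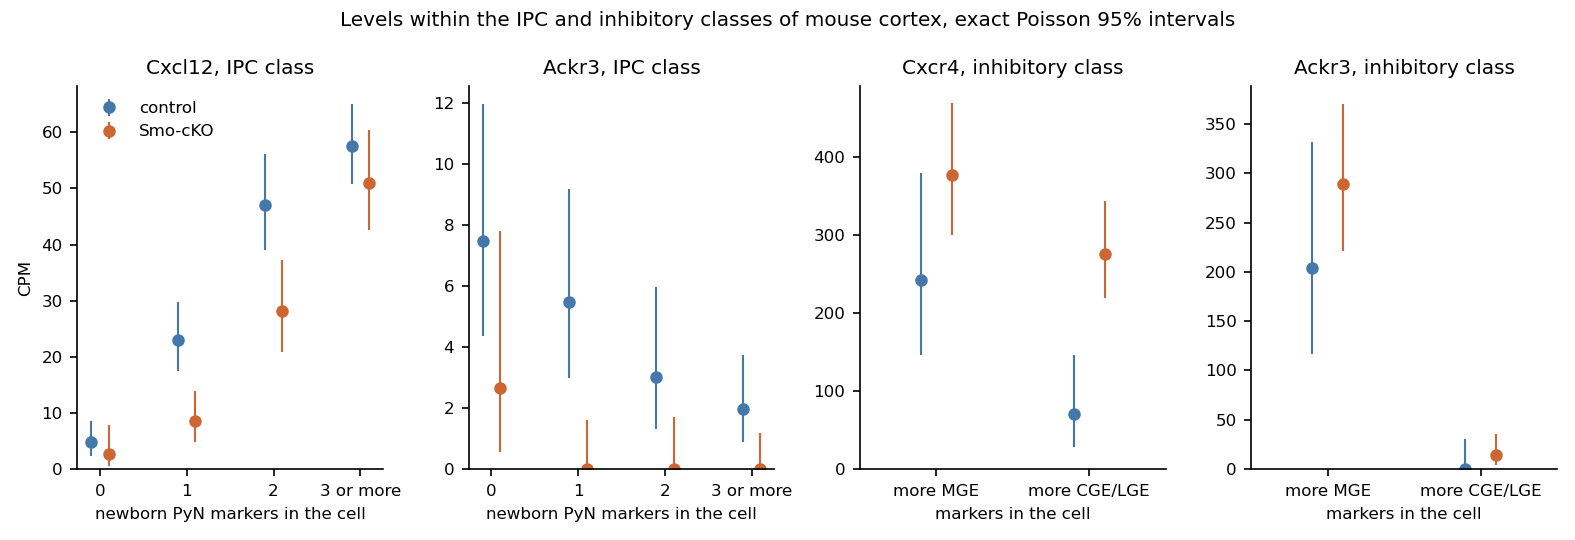
Levels in CPM within mouse classes, with control in blue, Smo-cKO in orange and exact Poisson 95% intervals (where a group had 0 UMIs the bar ends at the limit of 3 counts). The left panels show IPC cells by number of newborn PyN markers, where control *Cxcl12* goes from 4.84 to 57.6 CPM and control *Ackr3* from 7.47 to 1.97 CPM, and the right panels show *Cxcr4* and *Ackr3* in inhibitory cells by MGE and CGE or LGE markers, where *Ackr3* stands at 204 and 289 CPM in MGE cells.

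UMIs of *Ackr3* were few in progenitors of the control library. In the IPC class it was at 3.99 CPM (2.94 to 5.29), from 48 UMIs in 44 of 2440 cells (1.80%, 1.31 to 2.41). RG cells had 1.19 CPM (0.745 to 1.80), from 22 UMIs, and newborn PyN cells 0.689 CPM (0.298 to 1.36), from 8 UMIs, so the IPC interval lay above both. The limit of 3 counts in control microglia, 3.33% of cells, lies above the IPC and RG shares, so neither was separated from that class. Whether these UMIs reflect expression in progenitors was not tested. In Smo-cKO the IPC class had 3 UMIs in 2 of 1251 cells (0.160%, 0.0194 to 0.576), or 0.411 CPM (0.0848 to 1.2). The ratio was 0.103 (0.0206 to 0.320) and the shares differed by -1.64 percentage points (-2.26 to -1.02). Along the control IPC class the *Ackr3* values fell where those of the ligand rose: 7.47 CPM (4.35 to 12) with no newborn PyN marker, 5.47 (2.99 to 9.18) with 1, 3.03 (1.31 to 5.98) with 2 and 1.97 (0.902 to 3.74) with 3 or more. They rest on 17, 14, 8 and 9 UMIs. The interval of each step by markers overlapped with that of the next, while those of the first and last did not overlap. All 3 UMIs of the Smo-cKO IPC class lay in cells with none of these markers. In RG the ratio was 0.628 (0.283 to 1.32), from 34 UMIs in both libraries.

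In maturing PyN cells *Ackr3* stood at 4.42 CPM (2.47 to 7.29) in control and 5.88 CPM (3.77 to 8.75) in Smo-cKO. Without cells that held an inhibitory marker these values were 0.998 and 0.276 CPM, from 3 UMIs and 1 UMI. The MIPC or OPC class had 5 UMIs in 74 control cells (9.78 CPM, 3.18 to 22.8) and none in 21 Smo-cKO cells.

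Ligand and receptor were rarely seen in the same cell of the excitatory lineage. *Cxcl12* and *Cxcr4* had UMIs together in 11 of 2968 control newborn PyN cells, where the product of the shares gives 25.5, and in 4 of 2060 Smo-cKO cells, where it gives 14.8. In IPC cells the counts were 9 (product 14.6) and 5 (product 6.83), and in RG cells 9 (product 9.20) and 4 (product 3.18). In Cajal-Retzius cells both were usual, with 12 of 19 and 4 of 4 cells. In endothelial cells 4 of 31 control cells held both, against a product of 3.87. Such counts depend on depth and on how mixed a class is, and they are given as a description.

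Other genes of the pathway were fixed as 6 lists of 85 genes, of which 73 were in the table. Their counts are given by class, beside the share over all genes. In newborn PyN cells 42 had enough UMIs, with 3 higher and 1 lower in Smo-cKO by 1.5 fold or more, where 3.98% and 3.52% of all genes were. Their median log2 ratio was 0.06 against 0.04 over all genes. *Rgs16*, which speeds the switching off of G proteins, was at 13.1 CPM in control and 27.3 CPM in Smo-cKO (ratio 2.08, 1.69 to 2.57). *Gng2*, a G protein gamma subunit, was at 69.4 and 112 CPM (1.62, 1.47 to 1.78), and *Robo1*, a Slit receptor, at 50.9 and 91.7 CPM (1.80, 1.62 to 2.01). *Dock1*, an activator of Rac, was the gene that was lower, at 4.48 and 2.49 CPM (0.555, 0.321 to 0.931).

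In inhibitory cells 20 of these genes had enough UMIs, 5 were higher and 1 lower, where 15.2% and 6.43% of all genes were, with a median log2 ratio of 0.15 against 0.06. *Pnoc*, which encodes the precursor of nociceptin, was at 46.2 CPM in control and 140 CPM in Smo-cKO (ratio 3.02, 1.56 to 6.55). *Rgs16* stood at 41.6 and 88.4 CPM (2.13, 1.04 to 4.92). For *Pak1*, a Rac effector kinase, *Prkar2b* and *Prkar1b*, regulatory subunits of protein kinase A, and the kinase *Akt1*, the ratios were 1.72, 1.61, 0.612 and 1.57, each with an interval that included 1. In RG 6 of 53 genes were higher and 3 lower (6.56% and 5.73% of all genes), in IPC 4 and 2 of 45 (6.79% and 5.61%), in maturing PyN 3 and 2 of 39 (4.52% and 2.78%) and in microglia 10 and 4 of 35 (13.2% and 12.7%).

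Genes with the pattern most like each member were found by Pearson's r of log2(CPM + 10) across the 6 mouse classes of at least 50 cells in each library, over 4690 candidate genes. For *Cxcl12* they were *Nxph4* (r = 0.998), *2600014E21Rik*, *Ubn1*, *Ulk4* and *Slc17a6* (0.990), all highest in newborn PyN, and *Slc17a6* encodes a vesicular glutamate transporter. For *Cxcr4* they were *Rpp21* (0.994), *Ubash3b*, *Got2*, *Tomm70a* and *Crk* (0.976), all highest in the inhibitory class. For *Ackr3* they were *Htr3a* (0.999), *Nxph1*, *Dlx1as*, *Vstm2l* and *Prox1os* (0.997), also highest there. With log2(CPM + 1) in place of log2(CPM + 10), 3 of the 5 genes stayed on the list for *Cxcl12*, where *Ptprk* and *Pou3f1* took the place of *Ubn1* and *Slc17a6*, and 4 of 5 stayed for each receptor. The 6 points share libraries and depth, so these are descriptions with no test.

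**Figure D5:**
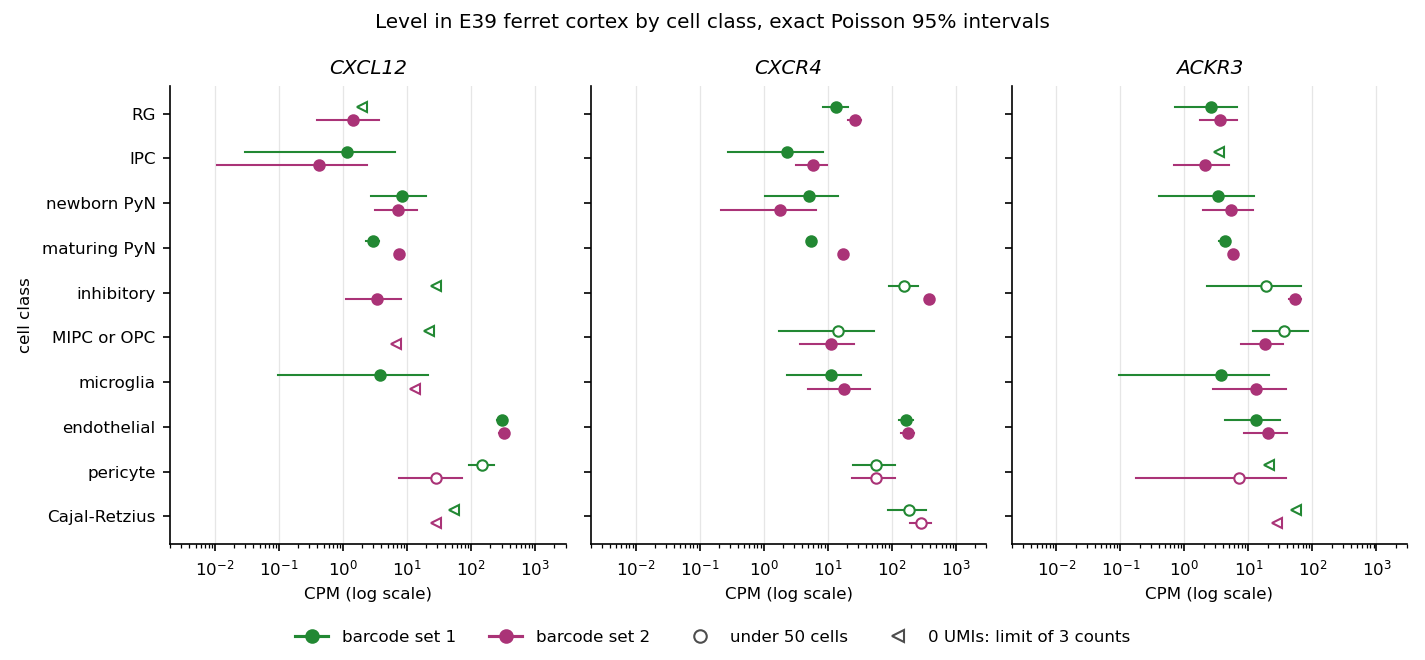
Level of each gene in CPM (log axis) by cell class in E39 ferret cortex, with barcode set 1 in green and set 2 in purple. Points are the pooled level of a class, bars are exact Poisson 95% intervals, open points stand for classes of under 50 cells and open triangles mark the limit of 3 counts where a class had 0 UMIs. *CXCL12* is highest in the endothelial class (304 and 325 CPM), and *CXCR4* in set 2 is highest in the inhibitory class (386 CPM).

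In ferret cortex *CXCL12* was highest in vessels, *CXCR4* was highest in inhibitory cells of set 2 and in endothelial cells of set 1 among classes of at least 50 cells, and *ACKR3* was highest in inhibitory cells of set 2. The ferret cells were another stage and species and another mix, with 79.8% and 75.9% of cells in the maturing PyN class, so ferret and mouse values are set side by side without a test. In endothelial cells *CXCL12* was at 304 CPM (251 to 365) in 27 of 63 cells (42.9%, 30.5 to 56.0) of set 1. In set 2 it was at 325 CPM (272 to 386) in 27 of 68 cells (39.7%, 28.0 to 52.3). Endothelial cells held 51.8% and 26.0% of all *CXCL12* UMIs, and the far larger maturing PyN class held 32.4% and 65.2%, the largest part in set 2. Pericytes had 150 CPM (92.6 to 229) in set 1 and 28.1 CPM (7.65 to 71.9) in set 2, from 21 and 4 UMIs.

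In each class of the ferret excitatory lineage the level of the ligand was under 10 CPM. Newborn PyN cells had 8.42 CPM (2.73 to 19.6) and 7.21 CPM (3.11 to 14.2), from 5 and 8 UMIs, and maturing PyN cells 2.94 CPM (2.30 to 3.70) and 7.39 CPM (6.61 to 8.24). IPC cells had 1 UMI in each set. RG cells had none in 457 cells of set 1 (limit of 3 counts, 0.656% of cells) and 4 UMIs in 609 cells of set 2 (1.45 CPM, 0.395 to 3.71). Cajal-Retzius cells, in which the mouse level was highest, had no *CXCL12* UMI in 11 and 17 ferret cells, for which the limit of 3 counts is 27.3% and 17.6% of cells.

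*CXCR4* was high in ferret inhibitory cells, at 158 CPM (92.2 to 253) in 14 of 46 cells (30.4%, 17.7 to 45.8) of set 1 and 386 CPM (354 to 419) in 289 of 511 cells (56.6%, 52.1 to 60.9) of set 2. Cajal-Retzius cells had 184 CPM (88.3 to 339) and 289 CPM (196 to 410), and endothelial cells 169 CPM (130 to 216) and 180 CPM (141 to 227). RG cells had 13.7 CPM (8.46 to 20.9) and 26.8 CPM (21.0 to 33.6), so the inhibitory level was 11.6 times (5.74 to 23.0) and 14.4 times (11.3 to 18.6) that of RG. IPC cells had 2.33 CPM (0.283 to 8.43) and 5.92 CPM (3.24 to 9.94), below RG in both sets, with ratios to RG of 0.171 (0.0194 to 0.698) and 0.221 (0.115 to 0.395). In mouse the ratio of IPC to RG was 0.626 (0.506 to 0.771) in control and 0.899 (0.665 to 1.2) in Smo-cKO. Ferret microglia had 11.4 CPM (2.34 to 33.2) and 17.8 CPM (4.86 to 45.7), from 3 and 4 UMIs.

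*ACKR3* in ferret was likewise highest in inhibitory cells of set 2, at 53.6 CPM (42.4 to 66.9) from 78 UMIs in 62 of 511 cells (12.1%, 9.43 to 15.3). Set 1 held 46 such cells and 2 UMIs (18.6 CPM, 2.26 to 67.3). In set 2 the split by birthplace markers was seen again: *ACKR3* stood at 90.4 CPM (70.6 to 114) in 57 of 265 MGE cells and at 6.67 CPM (1.82 to 17.1) in 2 of 220 CGE or LGE cells. *CXCR4* ran the other way there, at 263 CPM (229 to 302) in MGE and 555 CPM (497 to 618) in CGE or LGE cells. Cells with both receptors numbered 36, against a product of shares of 35.1. MIPC or OPC cells had *ACKR3* at 36.3 CPM (11.8 to 84.8) and 17.9 CPM (7.73 to 35.3), and endothelial cells at 13.2 CPM (4.30 to 30.9) and 20.0 CPM (8.64 to 39.4). RG cells had 2.60 CPM (0.709 to 6.67) and 3.62 CPM (1.74 to 6.66).

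In ferret maturing PyN cells, 67 of 137 *CXCR4* UMIs of set 1 and 639 of 764 of set 2 lay in cells with an inhibitory marker. The class stood at 5.59 CPM in set 1 and 17.3 CPM in set 2, and without such cells at 3.09 CPM (2.41 to 3.91) and 3.16 CPM (2.63 to 3.76). *ACKR3* of the class was less affected, at 4.24 and 5.67 CPM with these cells and 3.8 CPM (3.04 to 4.70) and 4.67 CPM (4.02 to 5.40) without them. In mouse the same step took *Ackr3* of maturing PyN cells below 1 CPM.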

How the data were processed

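The authors ran Cell Ranger (version not given in the sources used here) and deposited raw UMI counts in 1 table for mouse and 1 for ferret, with genes in rows and cells in columns. Per the labels the build was mm10, and Seurat 3 and StringTie were also named. Cells outside the study's limits (between 750 and 5000 genes, mitochondrial share under 10%) were left out, which kept 10498 of 10524 control, 7209 of 7596 Smo-cKO, and 10185 of 10190 and 13052 of 13292 ferret cells. Libraries hold 51657121 (control), 42057782 (Smo-cKO), 30548876 and 56090792 (ferret) UMIs after the limits.

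Each cell took the class with the largest share of its marker list detected, among 13 lists, with at least 3 markers and no tie. Choroid plexus could not be assigned in mouse, with 2 of 5 markers in the table. Doublets were not removed. The members, the marker lists and the pathway lists were chosen with earlier results of these data known. The lists for MGE, CGE or LGE, border macrophage, homeostatic microglia, immediate early and arterial genes were chosen after values had been seen.

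UMIs were summed per class and library. Intervals were 95% Poisson, Clopper-Pearson, conditional binomial or, for differences of shares, Newcombe intervals, and a count of 0 was given a limit of 3 counts. No test was made with 1 library per group. Thinned shares are the hypergeometric expectation at 2000 UMIs. Named pathway genes were those past 1.5 fold with at least 50 UMIs in the class where a member was highest, at most 3 each way per list, and for likeness the 5 genes of highest r with at least 50 CPM in 1 class. Alternatives covered the cell limits, at least 4 markers, a lead of 20 percentage points, cycling cells, thinning, at least 2 UMIs per cell, means over cells, scaling by the median ratio, the fold and the UMI minimum. Calculations were tested on simulated data and run in python 3.11.15 with numpy 2.4.6, scipy 1.17.1, pandas 2.3.3 and matplotlib 3.10.9.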

Additional observations from a re-analysis of the deposited data

Results flagged for a closer look

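*CXCR4* was at 138 CPM in the 889 cells of ferret set 2 that took no class and entered no comparison, with a UMI in 208 of them (23.4%, 20.6 to 26.3). The signal is above the limit that a count of 0 allows. Of these cells, 254 held at least 3 inhibitory markers, and *ACKR3* was at 16.2 CPM there. In the 776 cells without a class of set 1, of which 21 held 3 such markers, *CXCR4* was at 23.4 CPM.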

How the results depend on the processing

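No ratio whose interval lay off 1 changed direction under these alternatives, but the *Ackr3* ratio of maturing PyN, 1.33 with an interval that included 1, fell below 1 in 3 of them. Of 232 main values 203 stayed within the interval of the main value (or, for counts, within 1.5 times). Where classes needed a lead of 20 percentage points, the *Cxcl12* ratio of maturing PyN was 0.870, the *Ackr3* ratio of IPC 0 and *Cxcl12* of newborn PyN over RG in control 14.9. Without cycling cells the *Cxcr4* ratio of microglia was 2.03 and *Cxcr4* of inhibitory over RG in control 11.6. With classes and levels taken from cells thinned to 2000 UMIs, the *Cxcl12* ratio of IPC was 0.893, the *Ackr3* ratios of RG and IPC were 0 and that of maturing PyN 0.511, *Cxcl12* of newborn PyN over RG in control was 13.8, and *ACKR3* of inhibitory over RG in ferret set 2 was 6.07. These alternatives leave fewer cells or UMIs. In 2 alternatives added after the data were seen, leaving out cells with an inhibitory marker gave a *Cxcl12* ratio of 0.663 in RG, an *Ackr3* ratio of 0.277 in maturing PyN, *Cxcl12* of newborn PyN over RG in Smo-cKO of 15.5 and *CXCR4* of inhibitory over RG in ferret set 2 of 19.7, and a maturing PyN list without genes of all neurons gave an *Ackr3* ratio of 0.112 there. At 2 fold the pathway genes higher in Smo-cKO numbered 3 in RG, 3 of 45 in IPC (1.93% of all genes), 1 in newborn PyN, 1 in maturing PyN, 2 in inhibitory and 6 in microglia cells. Those lower numbered 3 of 53 in RG (1.71% of all genes) and 0 in IPC, newborn PyN, maturing PyN, inhibitory and microglia cells. Over these classes from 0.863% to 5.96% of all genes were higher and from 0.92% to 3.42% lower. With a minimum of 20 UMIs, 3 were lower in newborn PyN, and 8 were higher and 3 lower in inhibitory cells (5.39%, 22.3% and 9.79% of all genes). No paired analysis was possible because each genotype has 1 library and no result comes from a test, and no library could be left out for the same reason.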

Other observations

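*Rgs16* was past 1.5 fold in every excitatory class and in inhibitory cells. Its CPM in control and Smo-cKO were 8.26 and 13.4 in RG (ratio 1.62, 1.31 to 2.00), 14.6 and 25.6 in IPC (1.75, 1.42 to 2.17) and 8.24 and 22.8 in maturing PyN (2.77, 1.80 to 4.38), beside the newborn PyN and inhibitory values above. In RG, *Ramp2* and *Ramp1*, which encode partners of adrenomedullin and CGRP receptors, were at 14.8 and 4.86 CPM in control and 4.10 and 0.870 CPM in Smo-cKO, and *Adm*, whose product ACKR3 is known to take up, was at 2.00 and 5.59 CPM (ratio 2.80, 1.89 to 4.22).

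In microglia, *Ccr2*, a receptor of monocytes, was at 25.5 and 126 CPM (ratio 4.92, 3.22 to 7.83), *Cd74*, a receptor for the cytokine MIF, at 56.4 and 177 CPM (3.13, 2.34 to 4.27) and *Cx3cr1*, a receptor of homeostatic microglia, at 958 and 628 CPM (0.656, 0.601 to 0.717). The genes of these paragraphs were singled out after their values were seen, each difference rests on 1 library per genotype, and none was tested.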
